A study of Bos taurus with 11 samples.

Results

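The miRNAs numbered *miR-2284* and *miR-2285* form a large family of short regulatory RNAs described in ruminants. In the mammary miRNome of dairy cows it was counted on 113 of the 796 rows of the deposited table, taken as every row whose identifier starts with bta-miR-2284 (21 rows) or bta-miR-2285 (92 rows). These rows made up 14.5% of the 780 known miRNAs in the table, the other 16 rows being predicted miRNAs. The study compared the mammary gland (MG) of 2 dairy breeds, with biopsies of 5 Holstein and 6 Montbéliarde cows, lactating, at mid-lactation and on the same forage and concentrate diet. Each cow gave 1 small RNA library. No treatment was given, so breed was the contrast, and a single biopsy site stood for each gland.

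A miRNA is cut by the enzymes Drosha and Dicer from a hairpin in a longer transcript. The mature strand is then loaded into an Argonaute protein, where the bases of its seed pair with messenger RNAs and lower their translation or stability. Families of this kind grow by duplication of the hairpin, so that 1 mature name can stand for several genomic loci, and reads of close relatives are hard to assign to 1 row. Letters in the names (*miR-2285a*, *miR-2285aa*) tell members of the family apart. The functions of the single members in the MG are largely unknown, and none is stated here.

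The depth, as counted miRNA reads, was 7431936 to 16808976 for Holstein and 6087865 to 11395785 for Montbéliarde cows. The tissue label was checked against marker miRNAs. All 8 mammary epithelial markers, among them *miR-200a* and *miR-141*, were detected, and their summed level was 129537 to 167436 RPM (reads scaled to an equal total of counted reads in each library) in Holstein and 38528 to 145702 in Montbéliarde libraries. The lowest of these values came from the Montbéliarde library CNLX15, and the next lowest, 77568, from CNLX21. The list also holds *miR-148a*, which the paper counts among the most abundant miRNAs of the MG. The sum does not show which of the 8 markers were lower. All 4 stromal markers were detected. They summed to 159116 to 213204 RPM in Holstein and 219051 to 337035 in Montbéliarde libraries, without overlap between the breeds. The highest value was in CNLX15. *MiR-143* took 23.6% of the counted reads on average, so this sum mostly gives the level of 1 miRNA. The 5 leukocyte markers, all detected, summed to 1862 to 3044 and 1868 to 3452 RPM, the 3 erythroid markers, all detected, to 2666 to 3900 and 2423 to 5263. The 2 endothelial markers, both detected, summed to 24694 to 32553 and 22263 to 31047, and the 3 of 4 muscle markers found in the table to 56.7 to 168 and 57.3 to 143.9. In bulk tissue, fewer cells of a type and less of a miRNA per cell cannot be told apart. CNLX15 stood apart in the epithelial sum, while its stromal sum was close to the 327427 RPM of CNLX21. For members with an unadjusted edgeR p of at most 0.05, fold changes are given with and without CNLX15.

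The family was broadly detected but took few reads. Of the 113 members, 104 (92.0%) had at least 1 read in at least 1 library, against 95.1% of the 667 other known miRNAs. Only 36 members (31.9%) had a read in every library, against 54.4% of the other known miRNAs. The most comparable rows, the 131 bovine miRNAs from *miR-2286* to *miR-2490*, had 86.3% detected and 16.03% read in every library. The family thus lay between these sets in the share of rows read in every cow. The 9 members without any read were *miR-2285ap*, *-az*, *-bw*, *-cs*, *-cu*, *-cy*, *-da*, *-di* and *-n*. All of them belong to *miR-2285*, whereas each of the 21 *miR-2284* rows was read at least once. A count of 0 allows a share of up to 1.78e-05% of the counted reads in the deepest library and up to 4.93e-05% in the shallowest. A further 14 members had exactly 1 read over all 11 libraries and 31 had 2 to 9 reads. The remaining 59 (52.2%) reached 10 reads in all and entered the breed comparison, against 71.2% of the other known miRNAs.

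Levels are given as normalized read counts, which are raw counts divided by 1 size factor per library, and compare miRNAs as counted, without correction for ligation preference. In the mean over the 11 libraries, 2 members were far above the rest, at 3304 and 1679 normalized reads, and 3 others were at 100 or more. Another 17 lay between 10 and 100 and 33 between 1 and 10, while 49 of the detected members stayed below 1. A mean of 10 or more was reached by 22 members (19.5%), against 48.1% of the other known miRNAs and 6.87% of those from *miR-2286* to *miR-2490*. The median of the detected members was 1.14 normalized reads, against 10.9 and 0.728 in the same sets. Most members were therefore close to the level at which 1 read decides whether a row counts as detected.

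**Figure D1:**
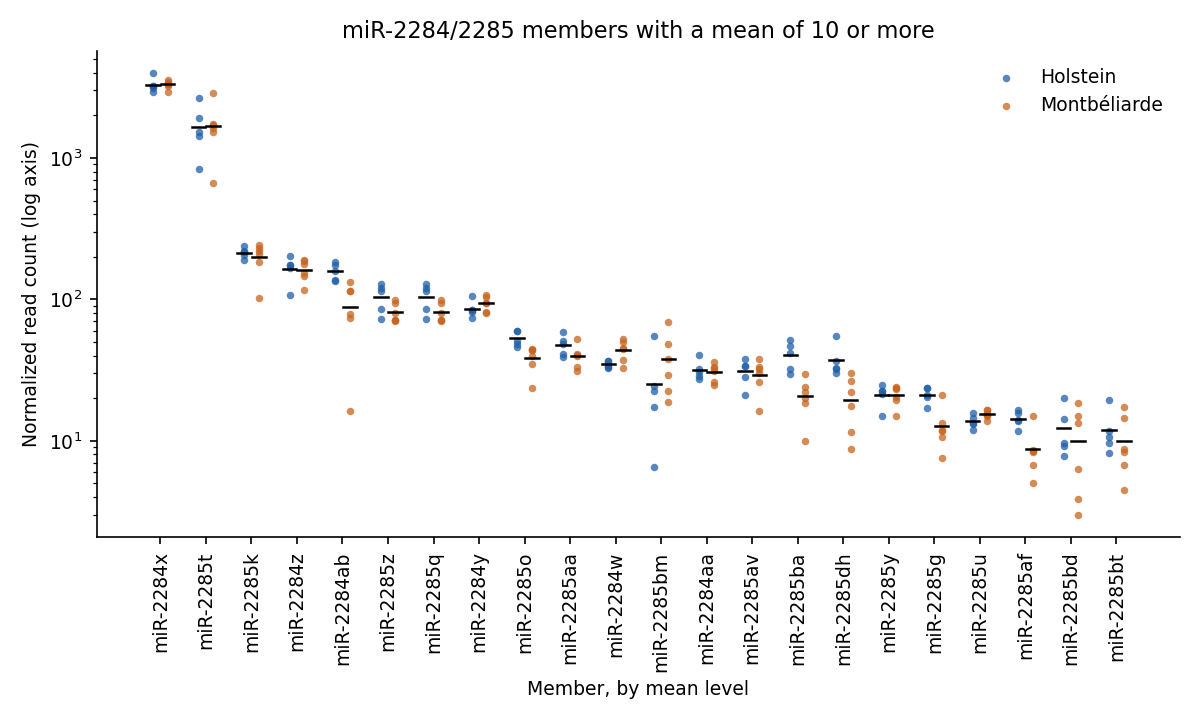
Normalized read count (log axis) of the 22 members with a mean of 10 or more, ordered by mean level, with 1 point per library coloured by breed. The first 2 members lie above all others in each library, and 17 of the 22 have means under 100.

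The number of members read in a library ranged from 47 in CNLX13, the shallowest library, to 80 in CNLX5, the deepest. Holstein libraries had 70.2 ± 7.56 members (SD, n = 5) and Montbéliarde libraries 61.0 ± 9.38 (SD, n = 6). When the counts were thinned to the depth of the shallowest library, the expected numbers were 56.1 to 60.8 in Holstein and 46.9 to 60.7 in Montbéliarde libraries, so the ranges overlapped at equal depth as well. In each library, 12 to 25 members (median 20) were represented by a single read.

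**Figure D2:**
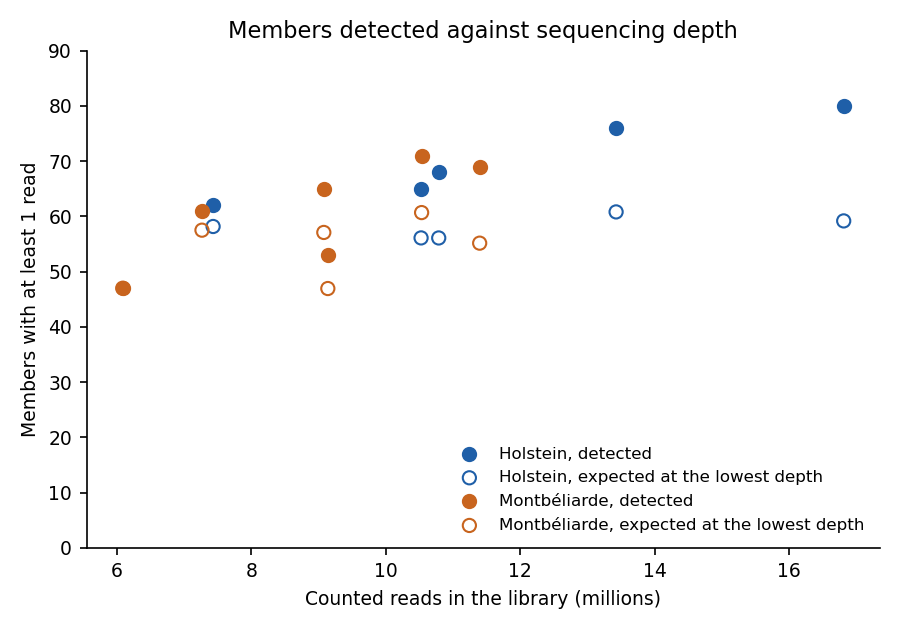
Members with at least 1 read against the counted reads of the library, as counted (filled) and as computed after thinning to the lowest depth (open), coloured by breed. The filled points span 47 to 80 members and the open points 46.9 to 60.8.

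The whole family took 0.0639% ± 0.0104 of the counted reads (SD, n = 11), which is 639 RPM. For comparison, *miR-143*, the most abundant miRNA of the table, took 23.6% on average. In Holstein libraries the family had 618, 566, 641, 574 and 835 RPM for CNLX1, 3, 5, 7 and 9. Montbéliarde libraries ranged from 455 in CNLX15 to 766 in CNLX23, with a median of 652. In Holstein, 4 libraries lay close together and CNLX9 was above all others, and the breeds overlapped over most of their range. The share was 0.0646% ± 0.0110 in Holstein and 0.0633% ± 0.0109 in Montbéliarde cows. The lowest and the highest share had Wilson 95% intervals of 0.0442% to 0.0470% and 0.0814% to 0.0856%, which cover counting error only.

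**Figure D3:**
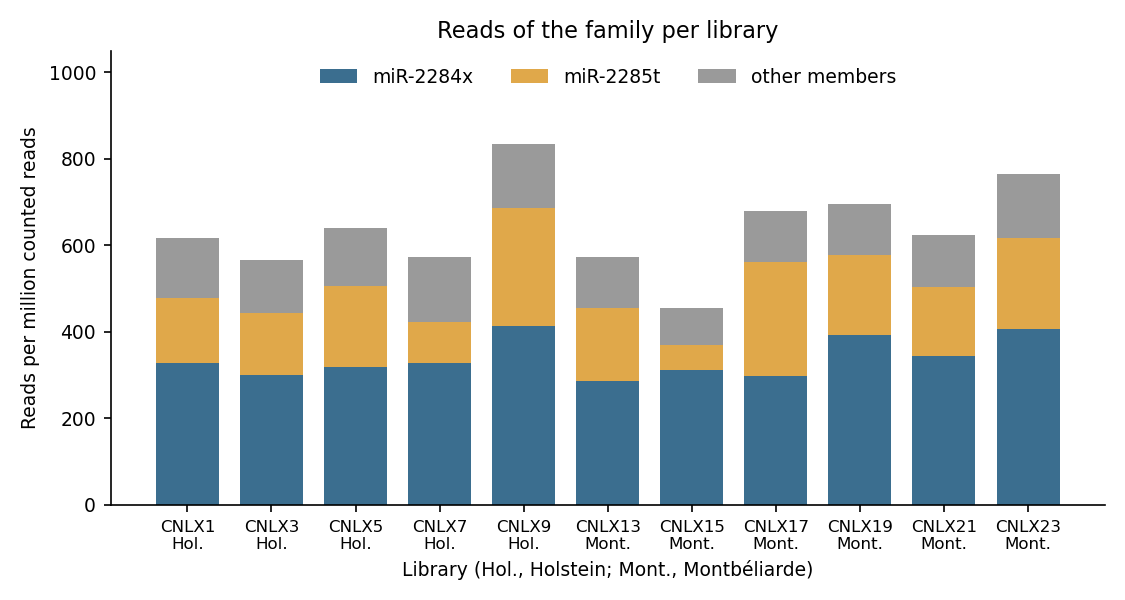
RPM of the family in each library, stacked as *miR-2284x*, *miR-2285t* and all other members. The total runs from 455 (CNLX15) to 835 (CNLX9), and *miR-2284x* is the largest block in every bar.

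A pair of members held most of the reads. *MiR-2284x* alone held 53.6% ± 6.22 of the family's reads (SD, n = 11; 43.8 to 68.5%), and together with *miR-2285t* 79.8% ± 2.66. The leading 5 members held 87.7% ± 1.55 and the leading 10 held 93.6%, which left 6.44% for the other 94 detected members. Because of *miR-2284x*, the 21 *miR-2284* rows held 61.2% of the reads and the 92 *miR-2285* rows 38.8%.

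*MiR-2284x* ranked 79 among all 796 rows. Its normalized read count was 3110, 3239, 3235, 2906 and 3996 in the Holstein libraries, and in Montbéliarde libraries it ranged from 2917 to 3561 with a median of 3337. Apart from CNLX9, the highest, all libraries lay within a narrow band, and its coefficient of variation (CV, SD over mean of the 11 libraries) was 9.24%. The log2 fold change, given throughout as Montbéliarde over Holstein, was 0.00 (95% interval −0.29 to 0.29, edgeR adjusted p = 0.997). RefSeq places its single locus inside *TIAM1*, the gene of an exchange factor that activates the small GTPase Rac.

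*MiR-2285t* ranked 100 and varied far more. Its normalized read count was 1420, 1534, 1906, 838 and 2641 in Holstein libraries, and ranged from 664 in CNLX15 to 2872 in CNLX17 in Montbéliarde libraries, with a median of 1663. High and low libraries occurred in both breeds, and the CV was 38.9%. The log2 fold change of 0.01 had an interval of −0.66 to 0.68 (edgeR adjusted p = 0.993), and was 0.26 (edgeR adjusted p = 0.712) without CNLX15. Its locus lies inside *FCGR2B*, the gene of an inhibitory receptor for immunoglobulin G on leukocytes. *MiR-2284x* exceeded *miR-2285t* in every library, by 1.13 times in CNLX17, 5.37 times in CNLX15 and a median of 2.11 times.

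The next members were far lower. *MiR-2285k* had 207, 220, 238, 216 and 189 normalized reads in Holstein and 102 to 244 (median 215) in Montbéliarde libraries, where CNLX19 alone was low. *MiR-2284z* had 108, 166, 174, 175 and 203 in Holstein and 116 to 191 (median 165) in Montbéliarde libraries, and the breeds overlapped. *MiR-2284y* had 80.8, 83.9, 84.5, 73.9 and 106 in Holstein and 80.0 to 107 (median 94.3) in Montbéliarde libraries. The CV was 18.96% for *miR-2285k*, 18.4% for *miR-2284z* and 12.9% for *miR-2284y*. Of these 3, *miR-2284y* varied least between cows. *MiR-2285aa*, the last of the leading 10, had 50.9, 40.9, 59.1, 48.1 and 39.1 in Holstein and 31.2 to 52.3 (median 40.1) in Montbéliarde libraries. Its log2 fold change was −0.27 (SE 0.22, edgeR adjusted p = 0.624), and the breeds overlapped.

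Among members at 10 to 100 normalized reads the median CV was 23.2% (17 members), against 37.7% for 114 other known miRNAs at that level. Above 100 it was 18.96% for 5 members and 25.8% for 207 others. These medians describe the libraries and were not tested. *MiR-2285bm*, picked after its values were seen, had the widest spread in the first of these ranges, with a CV of 58.2% and levels from 6.52 in CNLX9 to 68.7 in CNLX15.

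Some rows did not carry independent counts. *MiR-2285z* and *miR-2285q* had the same raw count in each of the 11 libraries, 1061 reads in all, and from 48 reads in CNLX13 to 173 in CNLX7. Both rows therefore show 1 measurement, with a normalized mean of 91.3. At 10 reads or more, identical counts covered 2 of 59 members and, in 9 groups, 18 of all 550 miRNAs. Such rows were thus not particular to the family. RefSeq places the *MIR2285Q* hairpin inside that of *MIR2285Z*, and both inside *SREK1*, the gene of a splicing regulator, although the strand was not given. Counting such rows once left the family's share at 0.0633%. The other 10 members in sets of identical counts had a single read each and matched by falling in the same library.

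*MiR-2285g* and *miR-2285af* were linked in another way. Their counts were 24 and 16 in CNLX1, 39 and 26 in CNLX5, and 6 and 4 in CNLX15. The ratio of the counts was 1.47 in all and stayed between 1.40 and 1.57 in each library. Splitting the sum of both in proportions of 3 to 2 returned each count within 0.5 reads in 11 of 11 libraries. RefSeq lists 3 loci for *miR-2285g* and 2 for *miR-2285af*, a ratio of 1.5. The 2 rows thus give 1 measurement between them. Of 1319 pairs of members tried, 3 had counts in such a proportion, and the last of them, *miR-2285by* and *miR-2285bk*, had only 10 and 13 reads. Pairs with a member that had no RefSeq match, among them *miR-2285dh*, were left out, as were some others. A split by locus number was thus not examined for those pairs.

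**Figure D4:**
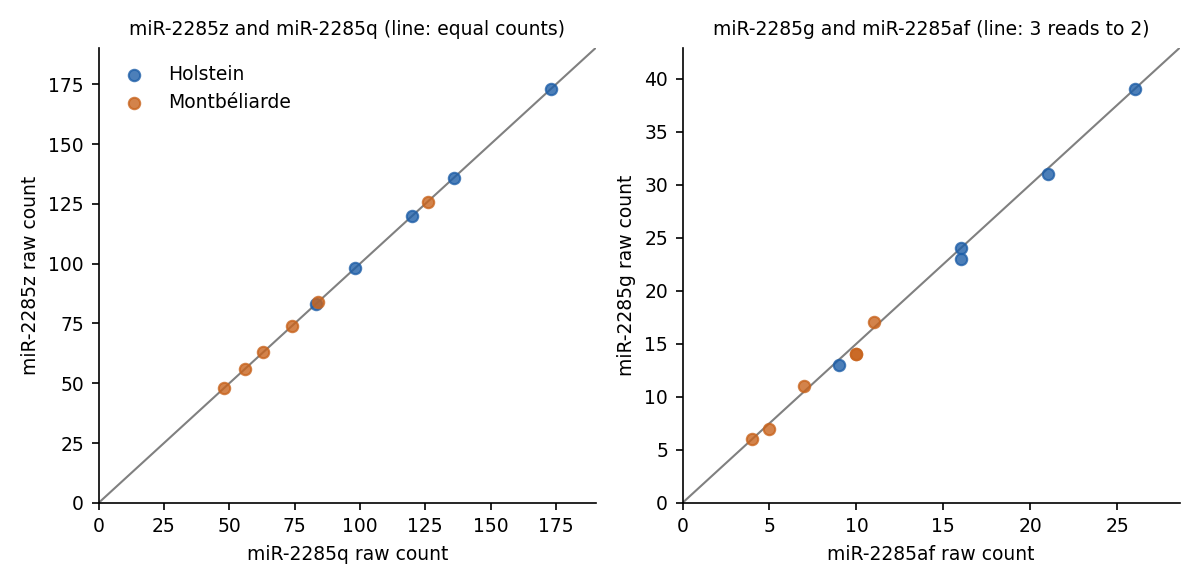
Raw counts of *miR-2285z* against *miR-2285q* and of *miR-2285g* against *miR-2285af*, with 1 point per library coloured by breed. Grey lines mark equal counts and the proportion of 3 to 2, and the 11 points of the first panel lie on the line, while those of the second lie on it or close to it.

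RefSeq (assembly ARS-UCD2.0, later than the one the authors mapped to) lists 191 loci of the family. Names matched for 106 of the 113 members, of which 22 had 2 or more loci and 84 had 1. Members with several loci were more often abundant, with 8 of 22 (36.4%) at a mean of 10 normalized reads or more against 11 of 84 (13.1%), and median levels of 2.33 and 0.677, which were not tested against each other. The number of loci did not fix the level, since *miR-2284y* and *miR-2284z* have 7 loci each, and so has *miR-2285n*, which was not read at all. The 2 leading members have 1 locus each. How reads matching several loci were counted is not given, and its part in these levels was not tested. Of the 191 loci, 125 (65.4%) lie inside protein-coding genes, against 65.3% of 841 other miRNA loci. In 6 cases a hairpin of 1 member lies inside that of another, among them *MIR2284H* inside a copy of *MIR2285O* and *MIR2284Y-2* inside *MIR2285U*. Overlap with another miRNA locus was found for 6.81% of the family's loci and 6.78% of the others.

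The design asks whether breed changes the miRNome of the MG. In the family, 0 of the 59 tested members reached an edgeR adjusted p of at most 0.05, against 0.364% of all 550 miRNAs tested. DESeq2 called 1 member, *miR-2285ba*, of the 31 to which it gave an adjusted p, against 4.86% of the 432 miRNAs with one. The study, which also used DESeq2, lists *miR-2285ba* among its differentially expressed miRNAs. At an unadjusted edgeR p of at most 0.05 there were 6 members (10.2%), a smaller share than the 14.2% of all tested miRNAs. All 6 were higher in Holstein, where the share over all miRNAs was 6.55%, and 0 were higher in Montbéliarde, where it was 7.64%. Log2 fold changes were below 0, that is towards Holstein, for 39 of the 59 members (66.1%) against 47.6% of all tested miRNAs, with medians of −0.25 and 0.03. These counts describe the members, of which some pairs had identical or proportional counts, and no test was made over the list.

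Only 3 members had breeds that did not overlap, and all 3 were higher in Holstein (5.08%, against 1.64% of all tested miRNAs). *MiR-2284ab* had 184, 135, 157, 138 and 175 normalized reads in Holstein libraries and 16.2 to 132 (median 97.0) in Montbéliarde libraries. Its lowest value stood in CNLX15, far under the next lowest, 73.3 in CNLX13. The log2 fold change was −0.83 (SE 0.36, edgeR adjusted p = 0.318), and −0.54 (SE 0.20, edgeR adjusted p = 0.223) without CNLX15. Its single locus lies inside *AFF1*, the gene of a component of a transcription elongation complex.

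*MiR-2284h-5p* was the least abundant of the 3. It had 9.66, 13.3, 10.9, 9.89 and 11.7 normalized reads in Holstein libraries and 2.50 to 6.67 (median 5.91) in Montbéliarde libraries. Every Holstein cow was above every Montbéliarde cow, with a log2 fold change of −1.06 (SE 0.31, edgeR adjusted p = 0.171), or −0.85 without CNLX15. *MiR-2285o*, one of whose 5 loci holds the *MIR2284H* hairpin, had 48.3, 59.4, 50.7, 46.2 and 59.9 in Holstein and 23.7 to 44.5 (median 41.8) in Montbéliarde libraries. The gap between the breeds was narrow, 46.2 against 44.5, and the log2 fold change was −0.45 (SE 0.22, edgeR adjusted p = 0.348), or −0.27 without CNLX15.

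The remaining members towards Holstein overlapped between the breeds. *MiR-2285ba* had 46.5, 51.2, 29.6, 32.3 and 41.7 normalized reads in Holstein libraries and 10.0 to 29.8 (median 20.98) in Montbéliarde libraries. The overlap was slight, the lowest Holstein value lying just under the highest Montbéliarde value. The means were 40.3 ± 9.19 (SD, n = 5) and 20.7 ± 6.57 (SD, n = 6), with a log2 fold change of −0.93 (SE 0.27, edgeR adjusted p = 0.171, DESeq2 adjusted p = 0.0363), and −0.72 by edgeR without CNLX15. *MiR-2285dh* had 36.9, 55.3, 32.6, 32.3 and 30.0 in Holstein and 8.75 to 30.0 (median 19.9) in Montbéliarde libraries, with a log2 fold change of −0.96 (SE 0.30, edgeR adjusted p = 0.171), or −0.74 without CNLX15. Here CNLX3 was the highest and the breeds met at 30.0.

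For the linked rows, *miR-2285g* had 21.1, 23.5, 23.5, 20.4 and 16.9 normalized reads in Holstein and 7.498 to 21.02 (median 11.7) in Montbéliarde libraries, and *miR-2285af* followed it. Their log2 fold changes were −0.76 (SE 0.27) and −0.75 (SE 0.29), with edgeR adjusted p of 0.217 and 0.246, or −0.57 and −0.56 without CNLX15. In both, a single Montbéliarde library, CNLX17, reached the Holstein range. *MiR-2285z* and *miR-2285q*, with 104 ± 23.8 in Holstein (SD, n = 5) and 81.0 ± 12.8 in Montbéliarde cows (SD, n = 6), overlapped.

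**Figure D5:**
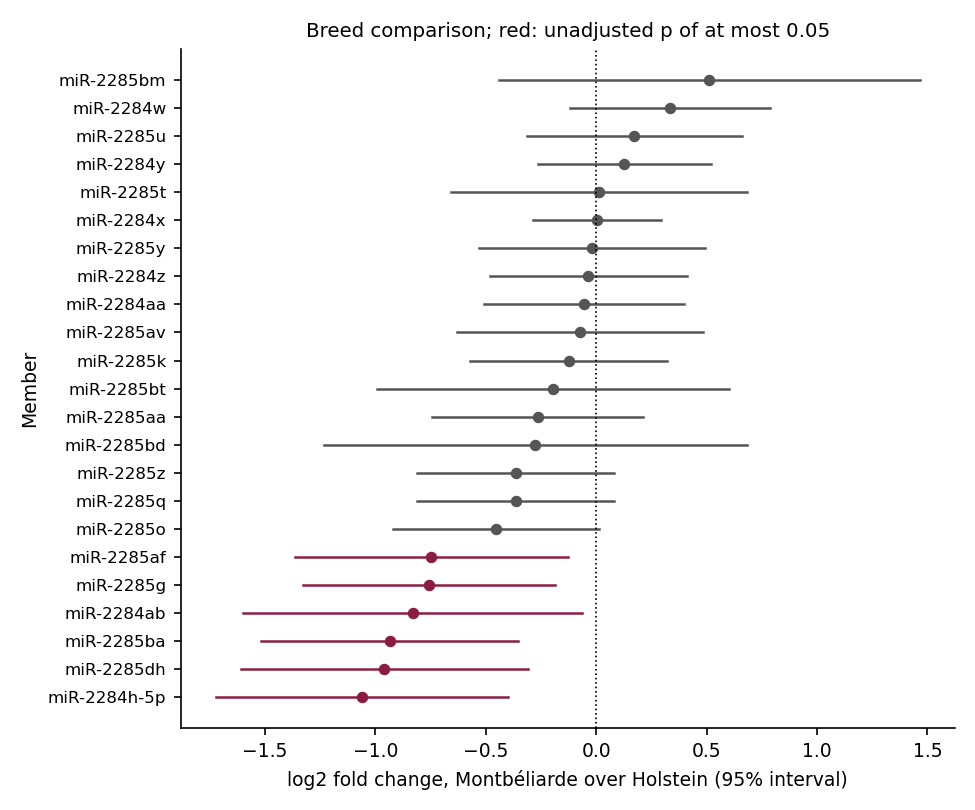
Log2 fold change (Montbéliarde over Holstein) with its 95% interval from edgeR for the members shown, with those at an unadjusted p of at most 0.05 in red. The red members all lie below 0, while *miR-2284x* and *miR-2285t* sit at 0.00 and 0.01.

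CNLX15 held the lowest value of each of the 6 members with an unadjusted edgeR p of at most 0.05. All 6 lean towards Holstein, so their selection favours a lowest value in a Montbéliarde library. They include the linked rows *miR-2285g* and *miR-2285af*. Of the 22 members with a mean of 10 or more, 12 were lowest in CNLX15 and 8 were highest in CNLX9. These 12 include the linked rows *miR-2285z*, *-q*, *-g* and *-af*. The same count over all miRNAs at that level was not made, so a trait of the family cannot be told from one of the library. In CNLX15 the epithelial sum, which includes *miR-148a*, was the lowest of all libraries and the stromal sum, mostly *miR-143*, the highest. Without CNLX15, 5 members of 58 tested still had an unadjusted edgeR p of at most 0.05 towards Holstein, against 4.43% of the 542 miRNAs then tested. *MiR-2285af* was lost from them (log2 fold change −0.56, SE 0.30). The part of the marker levels in these values was not tested. Without the 2 leading members, the family had 139 ± 11.5 RPM in Holstein (SD, n = 5; 123 to 151) and 119 ± 20.3 in Montbéliarde libraries (SD, n = 6; 85.5 to 149), ranges that overlapped.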

How the data were processed

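Small RNA libraries of 11 mammary biopsies were analysed from 1 deposited table. The authors trimmed and size-filtered the reads and quantified them with ncPRO-seq and miRDeep2 against miRBase and a bovine genome. They deposited raw counts per mature miRNA and library, with no normalization. The authors further deposited a scaled signal, the normalized read count, which was checked to be the raw count divided by 1 factor per library (largest relative departure 6.16e-10); per the labels' processing notes DESeq2 1.18.1 was used. Their fold changes, p-values and breed means were not used. How reads matching more than 1 miRNA were counted is not given in the sources used here, and this bears on every member with close relatives.

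Members were the rows whose identifier starts with bta-miR-2284 or bta-miR-2285. Members and lists were chosen with earlier results of these data known. Raw counts of the 550 miRNAs with at least 10 reads in all were tested with edgeR 4.0.16 in R 4.3.3 (TMM, robust quasi-likelihood test, Benjamini-Hochberg adjustment over all 550, limit 0.05), and DESeq2 1.42.0 was the alternative tool. The fits were tested on simulated data, with log2 fold changes larger than those of any tested member. That test does not show whether differences as small as those of the members would be found. P-values set each breed difference against the spread between cows. With 1 library per cow, that spread includes variation between biopsies and libraries. Depth, 6087865 to 16808976 counted reads, leaves counting error as a main limit for members of a few reads. Named were the 10 most abundant members, those with an unadjusted p of at most 0.05, those with identical counts and *miR-2285ba*, which the study lists. The alternatives were the tool, the normalization, the filter, the merging of identical rows and each library left out. *MiR-2285bm*, *-by*, *-bk*, *-n* and *-u* were named after values were seen. Detection at equal depth is the binomial expectation. Gene names came from RefSeq (ARS-UCD2.0), whose build differs from the authors', so no coordinates are given.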

Additional observations from a re-analysis of the deposited data

Results flagged for a closer look

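Of 38 groups of libraries examined with Dixon's criterion at 95%, 4 held a library far from the others. Chance alone flags about 1 in 20 groups of normally distributed values. Linked rows and sums over the same reads were tried as separate groups, so no excess over chance is read from the 4. *MiR-2285dh* had 55.3 normalized reads in the Holstein library CNLX3, against 30.0 to 36.9 in the other Holstein libraries. *MiR-2285af* had 15.0 in the Montbéliarde library CNLX17, against 4.998 to 8.63 in the others. The family summed to 835 RPM in the Holstein library CNLX9, against 566 to 641. The ratio of *miR-2284x* to *miR-2285t* was 5.37 in the Montbéliarde library CNLX15, against 1.13 to 2.18.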

How the results depend on the processing

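No paired analysis was possible because each cow gave 1 library and the labels pair no cows between the breeds. Leaving out each library in turn gave 0 to 0 called members with edgeR, 99 to 104 detected members, a family share of 0.0619% to 0.0657% and a share of the leading 5 members of 87.6% to 88.1%. DESeq2 called 1 member, *miR-2285ba* (log2 fold change −0.93, adjusted p = 0.0363), the only named member to pass the limit under an alternative. Detection fell to 30 members when 10 reads in a library were asked for and to 36 when a read in every library was. Identical counts covered 12 members from 1 read on and 2 from 10 reads on. Of 15 named members, 11 kept the sign of their log2 fold change under every alternative. The sign turned for 4 members with values near 0. *MiR-2284x* went to −0.0179 without the filter and ran from −0.0245 to 0.0738 over the libraries left out, and *miR-2285t* went to −6.57e-05 and ran from −0.17 to 0.26. *MiR-2285k* ran from −0.18 to 0.0638, and *miR-2284z* from −0.0870 to 0.13, with 0.0150 when identical rows were merged. With a library left out, 55 to 59 members were tested. Of these, 4 to 8 had an unadjusted edgeR p of at most 0.05 towards Holstein, and at most 1 towards Montbéliarde. The share over all tested miRNAs was computed only without CNLX15 (4.43% towards Holstein), so these counts are not set against a background. The linked rows *miR-2285g* and *miR-2285af* count as separate members here. The causes of these shifts were not tested. Thinned detection and the sum without the 2 leading members were added after seeing the data. For the 82 detected members with a mean under 10 reads, depth limits what can be read from a fold change.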
